A study of Arabidopsis thaliana with 46 samples.

Results

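The strongly dark-repressed genes of these Arabidopsis shoots are the probe sets whose level fell by at least 5 on the log2 scale, which is 32-fold, when light-grown plants were kept in darkness. A probe set is the group of short oligonucleotides on the ATH1 array that reads 1 gene, or several similar genes where its name ends in _s_at. The members were chosen by their measured levels in the light experiment: the difference of group means, dark minus light, had to be -5 or lower both in COL-0, the wild type, and in SALK_070989, a T-DNA insertion line of the transcription factor gene WRKY1. Of 22746 probe sets that are not AFFX control probe sets, 53 met this threshold. Of these, 3 were left out by name, and 50 make up the set described here. The array annotation used here gives 1 gene for 16 of the 50 and lists no gene for the other 34, which are called by their probe set names. Among the 50, 4 have names ending in _s_at.

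The study measured RNA from shoots on 46 arrays in 16 groups, 14 groups of 3 arrays and 2 of 2 arrays. Plants were 14 days old, grown on MS medium with 0.1% sucrose at 22 °C under 50 µmol of light per square metre and second, with 16 h of light and 8 h of dark a day. In the steady groups, COL-0 and the 3 insertion lines SALK_016954, SALK_136009 and SALK_070989 were taken 2 h into the light period. In the light experiment, COL-0 and SALK_070989 were either kept in light or spent the time from the beginning of the day 13 light period under foil and were harvested in the dark on day 14. In the nitrogen experiment, both genotypes were raised on 1 mM KNO3 and moved in light for 2 h to 20 mM KNO3 with 20 mM NH4NO3 (N-rich) or to 20 mM KCl (N-absent). In the combined experiment, both genotypes are labelled dark N-absent or dark N-rich. For the combined experiment, the sources used here give neither the media and the transfer nor the length of darkness. The 2 COL-0 groups of the combined experiment have 2 arrays each, and each insertion line is 1 line. No label says whether replicate arrays came from separate cultures, so a p-value here measures the spread between arrays.

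In green tissue, light drives much of transcription: it supplies sugar through photosynthesis, and it acts through photoreceptors on transcription factors of plastid and growth genes. In a long night, many such genes are shut off while genes for the breakdown of amino acids and other reserves are turned on. The falling genes usually include enzymes of carbon fixation, photorespiration and plastid function, and proteins that remodel the growing cell wall.

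The array holds WRKY1 itself. Its group means lay between 6.65 and 7.73 in COL-0 on the log2 scale, between 2.25 and 2.67 in SALK_016954 and SALK_070989, and at 4.22 in SALK_136009. The lowest value of the whole table is 2.23, and 26.4% of all values lie within 0.01 of it. A listed gene counts as measured here if the annotation gives a probe set to that gene alone. The other listed genes may be on the array without a name. The leaf marker RCA, which encodes Rubisco activase, ranged from 10.87 to 14.05 over all arrays and was the 1 measured of 6 leaf mesophyll markers. The root hair expansins EXPA7 and EXPA18, the 2 measured of 8 root markers, had a median of 2.23 and no value above 3.64. The guard cell gene FMA, 1 of 4 listed, ranged from 3.47 to 6.30, and the seed gene AT3G01570, 1 of 5, from 2.23 to 8.20. The arrays of COL-0 dark and SALK_070989 dark had array medians between 4.29 and 4.34, against 4.37 to 4.68 on all other arrays. The 3′ minus 5′ difference of the GAPDH control probe sets, a measure of RNA integrity, was 3.02 on SALK_070989 steady replicate 3 and 2.91 on COL-0 dark N-absent replicate 1, and 1.79 to 2.64 on the other arrays. In whole shoots, fewer cells of a type and less RNA per cell cannot be told apart.

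The values that chose the 50 are given first, as a description. In COL-0 the difference dark minus light ranged from -7.70 to -5.08 with a median of -5.84, and in SALK_070989 from -7.55 to -5.04 with a median of -5.69. For all 50, every dark array lay below every light array of the same genotype, as it did for 40% of the probe sets kept for testing in COL-0 and 38.6% in SALK_070989. The smallest gap between them was 4.15 in COL-0 and 3.49 in SALK_070989. Just inside the threshold were BGLU40 (-5.08 in COL-0 and -5.33 in SALK_070989), 250006_at (-5.22 and -5.04) and 263034_at (-5.37 and -5.04). Just outside it were 253387_at (-4.98 and -5.01), 253943_at (-4.98 and -5.18) and 248377_at (-4.96 and -5.78). The threshold alone was met by 75 probe sets in COL-0 and by 68 in SALK_070989.

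The member levels split into a lit state and a dark state. The median over the 50 group means was 9.42 in COL-0 light and 3.21 in COL-0 dark, and 9.20 and 3.28 in the same groups of SALK_070989. In the steady groups the median was 9.56 in COL-0, 9.52 in SALK_016954, 9.37 in SALK_136009 and 9.18 in SALK_070989. In the nitrogen experiment it was 9.33 in COL-0 N-absent, 9.19 in COL-0 N-rich, 9.27 in SALK_070989 N-absent and 9.02 in SALK_070989 N-rich. In the combined experiment it was 4.50 in COL-0 dark N-absent, 4.67 in COL-0 dark N-rich, 4.76 in SALK_070989 dark N-absent and 4.73 in SALK_070989 dark N-rich. The same 50 were thus high in all 10 lit groups and low in the 6 dark groups by their median, with the combined dark groups above the dark groups of the light experiment. In each dark group of the light experiment 20 members lay below 3, close to the lowest value of the table, and 17 of them did so in both. In the combined dark groups 8 to 11 members lay below 3. A difference from a group this close to the lowest value is a lower bound of the fall.

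**Figure D1:**
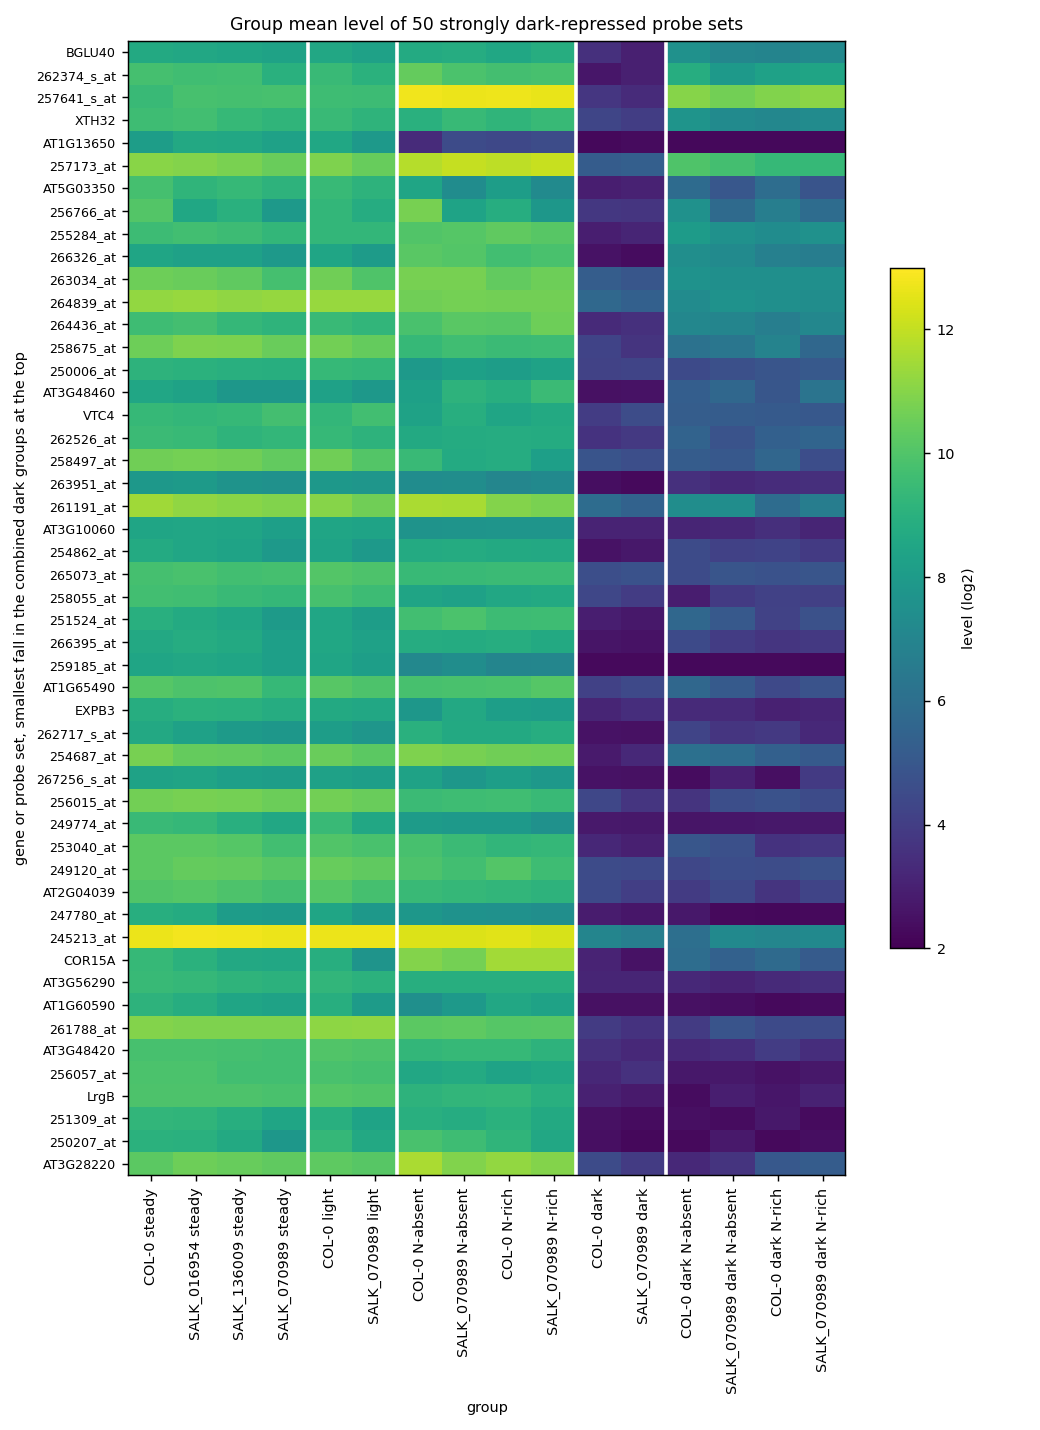
Group mean level on the log2 scale (colour) of the 50 members (vertical axis) in the 16 groups (horizontal axis), with white lines between the steady, light, nitrogen, dark and combined dark groups. Near the top, BGLU40 and 257641_s_at are dark blue only in the 2 dark groups of the light experiment, and near the bottom, LrgB and 250207_at are so in all 6 dark groups. AT1G13650, also near the top, is at the lowest value of the table in the combined dark groups and low in the nitrogen groups.

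The 8 members with the lowest mean of both differences include 2 named genes. LrgB (AT1G32080), also known as PLGG1, is the plastid transporter that exchanges glycolate and glycerate in photorespiration. Its levels in COL-0 light were 10.23, 9.93 and 10.11, and in COL-0 dark 2.69, 2.47 and 3.84. In SALK_070989 they were 10.02, 10.03 and 9.99 in light and 2.93, 2.50 and 2.91 in dark. No dark array came within 6 log2 units of a light array. AT3G48420 encodes a plastid phosphatase of the CbbY family, which clears xylulose bisphosphate, an inhibitor of Rubisco. It measured 10.09, 9.95 and 9.995 in COL-0 light and 3.56, 3.44 and 3.60 in COL-0 dark. In SALK_070989 it measured 9.84, 9.88 and 10.04 in light and 3.24, 3.50 and 3.10 in dark, with a spread of less than 0.5 within each of the 4 groups.

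The other 6 of these 8 have no gene in the annotation. The probe set with the lowest mean difference, 261788_at, had means of 11.15 in COL-0 light, 3.91 in COL-0 dark and 10.95 in COL-0 steady. Its COL-0 means in the other groups were 10.22 in N-absent, 10.10 in N-rich, 3.93 in dark N-absent and 4.45 in dark N-rich. In COL-0, 250207_at had means of 9.31 in light, 2.45 in dark, 2.27 in dark N-absent and 2.26 in dark N-rich. In COL-0 both stayed within 1 log2 unit of their dark level in the combined experiment. In SALK_070989, 261788_at had 3.61 in dark and 4.84 in dark N-absent. In contrast, 254687_at went from 10.48 in COL-0 light to 2.79 in dark but stood at 6.04 in dark N-absent and 5.37 in dark N-rich. Likewise 258675_at stood at 4.22 in COL-0 dark and at 6.14 and 6.93 in dark N-absent and dark N-rich. The means of 253040_at in COL-0 were 9.99 in light, 3.21 in dark, 4.96 in dark N-absent and 3.63 in dark N-rich, and those of 256015_at were 10.67, 4.36, 3.63 and 4.77.

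The remaining 14 named members fall into a few roles. In the plastid, AT2G04039 encodes a subunit of the chloroplast NADH dehydrogenase-like complex of cyclic electron flow. Its difference dark minus light was -5.62 in COL-0 and -5.70 in SALK_070989. AT3G10060 encodes an FKBP-type peptidyl-prolyl isomerase, a class of protein-folding enzymes (-5.36 and -5.31). COR15A, a cold-regulated protein of the chloroplast stroma that protects membranes during freezing, had -5.82 and -5.13. VTC4, for which no location in the cell is given here, encodes L-galactose-1-phosphate phosphatase, an enzyme of ascorbate synthesis (-5.35 and -5.12).

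At the cell wall and outside the cell, EXPB3, a β-expansin that loosens walls, had -5.54 in COL-0 and -5.17 in SALK_070989. XTH32, a xyloglucan endotransglucosylase/hydrolase that cuts and rejoins wall polymers, had -5.15 and -5.14. AT1G60590, a pectin lyase-like protein, had -6.38 and -5.52, AT3G48460, a GDSL lipase-like protein, -5.81 and -5.35, and BGLU40, a β-glucosidase, -5.08 and -5.33. AT5G03350, a legume lectin-like protein, had -6.49 and -6.06. AT3G28220, a TRAF-like protein for which no location in the cell is given here, had -5.76 and -6.22. For AT3G56290 (-6.11 and -5.96), AT1G13650 (-6.30 and -5.65) and AT1G65490 (-6.01 and -5.51) no role is given here.

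Whether the same 50 were low in darkness on arrays that did not choose them was tested by comparing each combined dark group with the nitrogen group of the same genotype and medium name. All 50 were lower in each of the 4 comparisons by limma with Benjamini-Hochberg adjustment over all 14288 probe sets kept. Of the probe sets kept, 26.1% were called lower for N-absent COL-0, 27.5% for N-absent SALK_070989, 26.9% for N-rich COL-0 and 28.2% for N-rich SALK_070989, and 19.3% in all 4. The 50 pass the level filter because their light level is high by the rule. The largest adjusted p among members in the limma fit was 0.006, 0.0021, 0.018 and 0.018 in that order. Every combined dark array lay below every nitrogen array of the pair for 50 of 50 members in each comparison, and for 29.9%, 28.7%, 29.7% and 30.3% of the probe sets kept in that order. The median member difference was -4.41, -4.66, -4.79 and -4.69, while the median over all probe sets kept was 0.16, 0.13, 0.18 and 0.15. Each pair of groups comes from 2 experiments, so the effect of darkness cannot be told apart from that of the experiment. The call of AT1G13650 in N-absent COL-0 was lost without COL-0 N-absent replicate 2 (-0.68, limma adjusted p = 0.092) and in a limma fit on only the groups compared (adjusted p = 0.091). For N-rich, 256766_at lost its call in COL-0 without COL-0 N-rich replicate 3 (-1.66, limma adjusted p = 0.094) and without dark N-rich replicate 1 or 2 of COL-0 (-2.23 and -2.09, 0.062 and 0.081). It lost it in SALK_070989 without N-rich replicate 1 or dark N-rich replicate 1 of that line (-1.66 and -1.49, limma adjusted p = 0.071 and 0.1).

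The size of the fall in the combined experiment varied widely among the 50. In all 4 comparisons 11 members again fell by 5 or more, against 0.175% of the probe sets kept. At the other end, 8 members had a difference smaller than 2 in size in at least 1 comparison, and 2 of them, BGLU40 and 262374_s_at, in all 4. For 7 of the 8 every combined dark mean was above 3. The other, AT1G13650, was at the lowest value of the table there, so its difference is a lower bound. By comparison, 34%, 32%, 46% and 32% of the members fell by 5 or more in N-absent COL-0, N-absent SALK_070989, N-rich COL-0 and N-rich SALK_070989. Of the 373 probe sets whose weaker fall in the light experiment lay between 3 and 5, 7.78%, 4.83%, 4.56% and 4.29% did so. Against the dark group of the same genotype, 20 members stayed within 1 log2 unit in all 4 combined dark groups, against 50.2% of the probe sets kept, and 12 were at least 2 log2 units higher in all 4, against 3.57%. Of the 50, 7 lay below 3 in all 6 dark groups, so close to the lowest value that a difference between dark groups can be hidden. Over single arrays, 22 members had every combined dark array above every dark array of the light experiment, against 27% of the probe sets kept. The array medians of those dark arrays were lower than on the other arrays, and the part of this in the 22 was not tested. For 47 members every combined dark array lay below every steady array, against 21.8%.

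**Figure D2:**
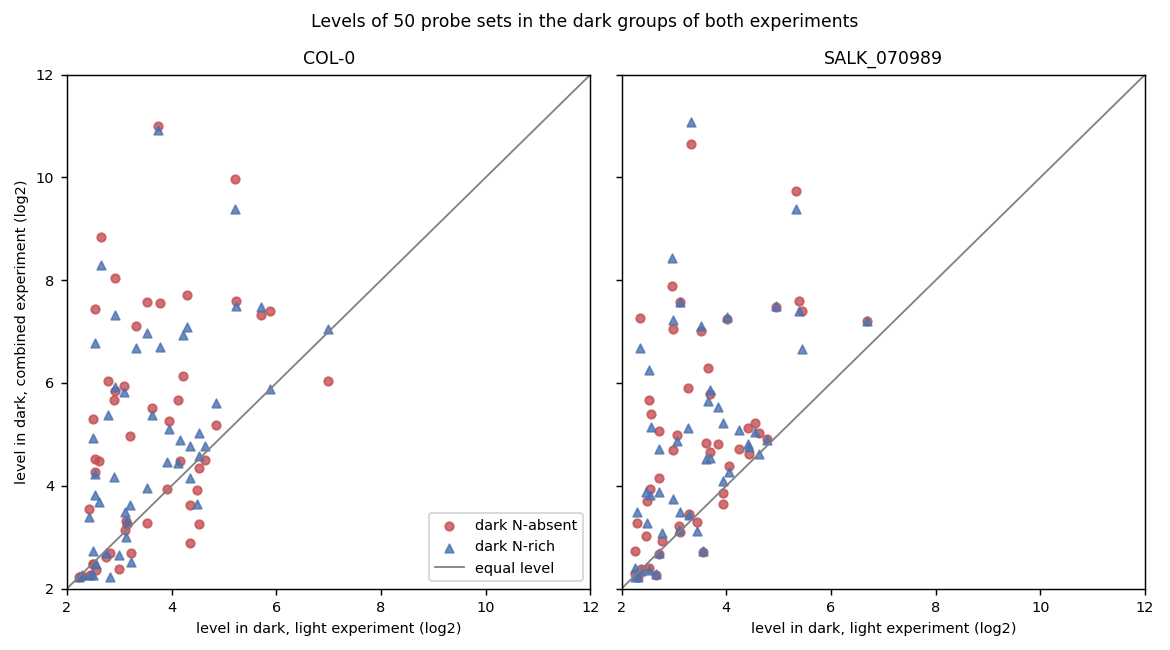
Level of the 50 members in the dark groups of the light experiment (horizontal axis, log2) and of the combined experiment (vertical axis, log2), with COL-0 on the left, SALK_070989 on the right, circles for dark N-absent, triangles for dark N-rich and a grey line at equal level. Points near the line are members with similar measured levels in both experiments, though close to the lowest value of the table a difference can be hidden. In all 4 combined dark groups, 7 members lie above 7.

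The photorespiratory transporter LrgB and AT3G48420 stayed near their dark levels in the combined experiment. LrgB measured 2.26 and 2.50 in COL-0 dark N-absent, 2.76 and 2.55 in COL-0 dark N-rich, 3.33, 2.52 and 2.94 in SALK_070989 dark N-absent and 3.58, 3.12 and 2.52 in SALK_070989 dark N-rich. All 10 arrays lay within the range from 2.26 to 3.58, where the 6 dark arrays of the light experiment lay from 2.47 to 3.84. Its differences from the nitrogen groups were -6.73 ± 0.26 (SE) in N-absent COL-0, -6.30 ± 0.23 in N-absent SALK_070989, -6.61 ± 0.26 in N-rich COL-0 and -5.87 ± 0.23 in N-rich SALK_070989. The largest of its limma adjusted p values was 4.3e-22. AT3G48420 ranged from 3.17 to 4.30 over the 10 combined dark arrays, with a median of 3.45, and from 9.05 to 9.63 over the 12 arrays of the nitrogen experiment. AT3G56290 did the same, from 2.94 to 3.67 against 8.67 to 9.29.

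AT1G60590 ranged from 2.24 to 2.72 over the combined dark arrays and from 2.34 to 2.88 over the dark arrays of the light experiment. Its differences were -4.99, -5.53, -6.35 and -5.95 in N-absent COL-0, N-absent SALK_070989, N-rich COL-0 and N-rich SALK_070989. The β-expansin EXPB3 ranged from 2.96 to 3.54 over the combined dark arrays, AT3G10060 from 3.09 to 3.85 and the NDH subunit AT2G04039 from 3.48 to 4.60. The differences of AT2G04039 were -5.55, -4.94, -5.60 and -4.84. These 4 genes were as low, to within 1 log2 unit of their highest dark array, in both experiments. AT1G60590 lay so close to the lowest value of the table, 2.23, that a difference between the experiments can be hidden.

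The wall enzyme XTH32 and the glucosidase BGLU40 had higher levels in the dark arrays of the combined experiment than in those of the light experiment. BGLU40 measured 2.91, 4.06 and 3.60 in COL-0 dark and 2.95, 3.17 and 2.80 in SALK_070989 dark. In the combined experiment it measured 7.48 and 7.65 in COL-0 dark N-absent, 6.91 and 7.04 in COL-0 dark N-rich, 6.39, 7.55 and 7.24 in SALK_070989 dark N-absent and 7.30, 7.14 and 7.26 in SALK_070989 dark N-rich. The lowest combined dark array thus lay above the highest dark array of the light experiment by more than 2 log2 units. Even so, BGLU40 was lower than in the nitrogen groups, by -1.14 ± 0.27, -1.73 ± 0.24, -1.60 ± 0.27 and -1.62 ± 0.24 (SE) in the order above, with limma adjusted p of 0.00034 or less.

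XTH32 ranged from 3.88 to 4.61 over the dark arrays of the light experiment and from 7.01 to 7.87 over the combined dark arrays. Its lit levels were close to 9 throughout, 9.10 to 9.77 over the steady arrays and 8.53 to 9.60 over the nitrogen arrays. Its differences in the combined experiment were -1.29, -2.17, -2.10 and -2.12, with limma adjusted p of 8e-07 or less. COR15A, AT3G48460, AT5G03350 and VTC4 lay between these extremes. COR15A ranged from 2.23 to 3.76 in the dark arrays and from 5.03 to 6.31 in the combined dark arrays. AT3G48460 ranged from 2.45 to 2.62 and from 4.92 to 6.40, AT5G03350 from 2.74 to 3.15 and from 4.40 to 6.58, and VTC4 from 3.17 to 4.90 and from 4.70 to 5.47. For the first 3 the ranges of both experiments did not overlap.

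**Figure D3:**
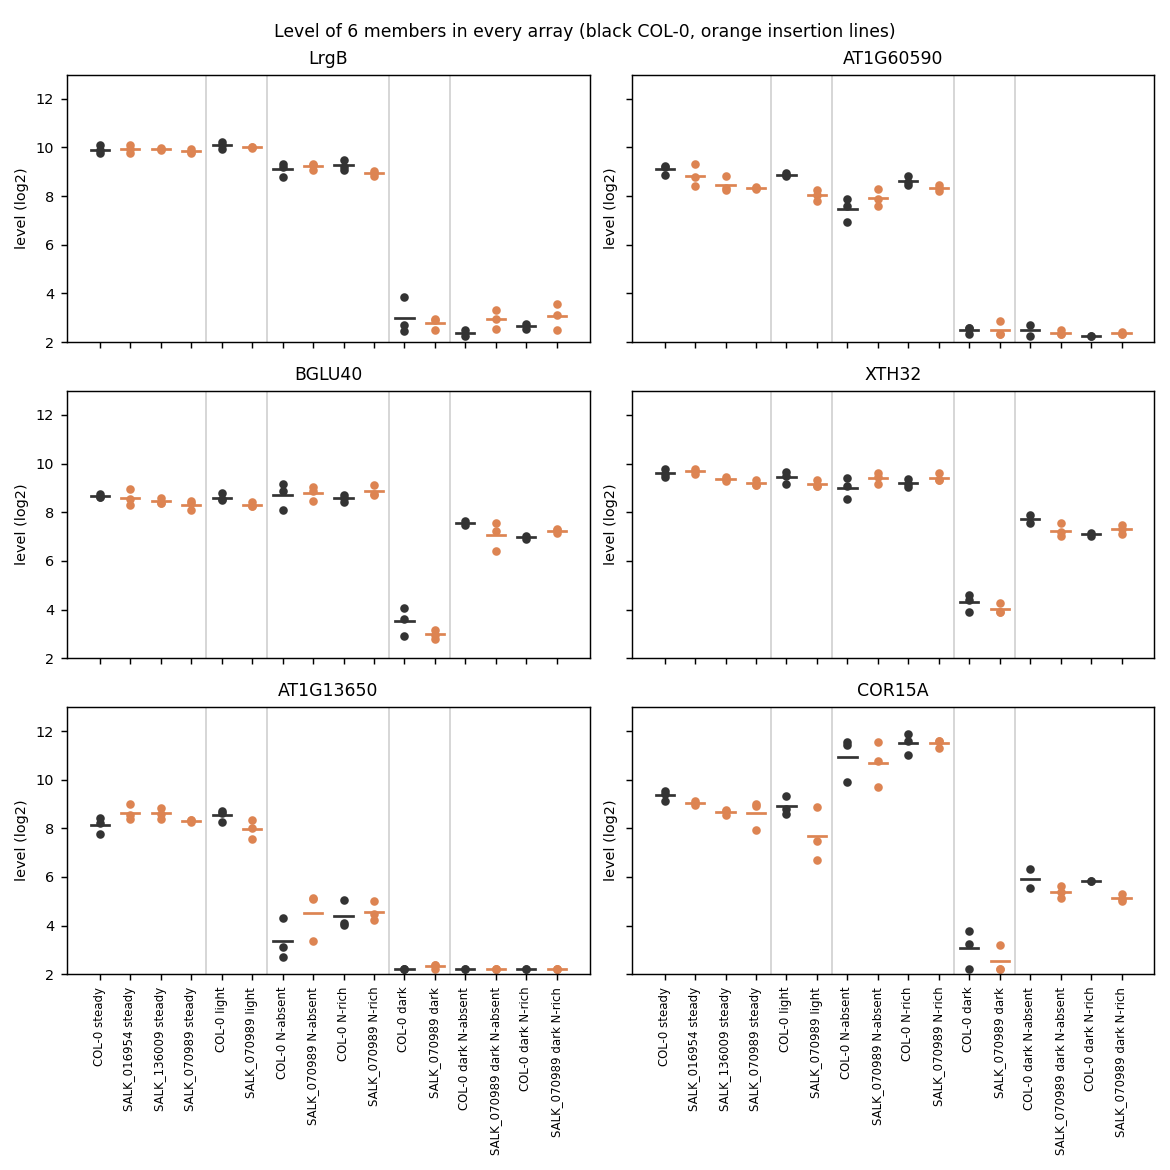
Level on the log2 scale (vertical axis) of 6 members in each of the 46 arrays, by group (horizontal axis), with points for arrays, short lines for group means, black for COL-0 and orange for the insertion lines. LrgB and AT1G60590 are low in all 6 dark groups, BGLU40 and XTH32 are lowest in the 2 dark groups of the light experiment, AT1G13650 is already low in the nitrogen experiment, and COR15A is highest there.

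The lit levels also depended on the experiment for some members. Against COL-0 steady, 14 members were lower by at least 1 log2 unit in COL-0 N-absent and 4 were higher by as much, against 7.22% and 10% of all probe sets kept. In COL-0 N-rich 12 were lower and 4 higher by that size, against 6.61% and 9.39%. Against SALK_070989 steady, 4 were lower and 9 higher in SALK_070989 N-absent, where 7.13% and 11.5% of the probe sets kept were, and 8 were lower and 8 higher in SALK_070989 N-rich, where 8.09% and 11.5% were. Over single arrays, 16 members had every array of the nitrogen experiment below every steady array, among them LrgB, VTC4, AT3G10060 and AT1G13650, against 12.2% of the probe sets kept. Conversely, 5 had every one above, COR15A and 4 probe sets with no gene listed, against 11.1%. These levels come from 2 experiments with different media and are given side by side without a test.

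AT1G13650 was the farthest apart. It measured 8.21, 7.75 and 8.41 in COL-0 steady and 8.70, 8.26 and 8.64 in COL-0 light. On the nitrogen media in light it measured 3.12, 4.30 and 2.70 in COL-0 N-absent and 5.04, 4.03 and 4.12 in COL-0 N-rich, so the highest of these arrays was more than 2 log2 units below the lowest steady array. In SALK_070989 it measured 5.13, 3.38 and 5.09 in N-absent and 4.48, 5.01 and 4.24 in N-rich. All 10 combined dark arrays were at 2.23, the lowest value of the table. Its differences in the 4 comparisons with the nitrogen groups, -1.14, -2.30, -2.17 and -2.35, are therefore lower bounds of the fall.

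COR15A went the other way. It measured 9.51, 9.43 and 9.12 in COL-0 steady and 11.53, 11.42 and 9.88 in COL-0 N-absent, and 11.87, 11.03 and 11.58 in COL-0 N-rich. In SALK_070989 light its 3 arrays were spread over 6.70, 7.47 and 8.88, the widest spread of COR15A in any lit steady or light group. The probe set 257641_s_at, which reads several transcripts, had 9.51, 9.17 and 9.71 in COL-0 steady and 12.91, 13.12 and 12.31 in COL-0 N-absent. In darkness it had 3.20, 4.06 and 3.97 in COL-0 dark but 10.85 and 11.13 in COL-0 dark N-absent. It was the 1 member whose combined dark arrays all lay above all its steady arrays, as those of 26.2% of the probe sets kept did, while the difference from COL-0 N-absent was still -1.78 ± 0.27 (SE).

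The nitrogen supply was compared within the nitrogen experiment, N-rich minus N-absent in light. In COL-0, 8 members were lower and 2 higher in N-rich by limma with adjusted p under 0.05, where 14.2% of the probe sets kept were called lower and 11.6% higher. In SALK_070989, 3 were lower and none higher, against 9.68% and 9.13%. At an unadjusted p under 0.05 there were 12 and 6 members. The shares of members called, 16% and 4% in COL-0 and 6% and 0% in SALK_070989, were near or below the background. Leaving out COL-0 N-rich replicate 1 or 2 left 6 or 5 calls in COL-0, and leaving out COL-0 N-absent replicate 1 or 3 left 5 or 6. A limma fit on only these 2 groups called 5, without 250207_at among others, against 10.5% of the probe sets kept. Of the 10 calls in COL-0, 2 kept their call whichever array was left out, AT1G60590 and 266326_at (-0.49 ± 0.15, limma adjusted p = 0.011). AT1G60590 measured 7.87, 7.60 and 6.92 in COL-0 N-absent and 8.57, 8.82 and 8.45 in COL-0 N-rich. The groups did not overlap, and the difference was 1.15 ± 0.20 (SE) with limma adjusted p = 4.4e-05. In SALK_070989 the arrays were 8.27, 7.88 and 7.61 in N-absent and 8.32, 8.45 and 8.19 in N-rich, which overlap.

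In SALK_070989, 250207_at was lower in N-rich by -0.98 ± 0.20 (SE) with limma adjusted p = 0.00047. Its arrays were 9.98, 9.47 and 9.31 in N-absent and 8.80, 8.39 and 8.63 in N-rich. In COL-0 it was lower by -0.67 ± 0.20 (limma adjusted p = 0.014), and that call was lost without COL-0 N-rich replicate 2 (-0.52) and without COL-0 N-absent replicate 1 (-0.56). The second member called in both genotypes was 261191_at, with -0.66 in COL-0 and -0.76 in SALK_070989 (limma adjusted p = 0.016 and 0.0068). Its COL-0 call was lost without COL-0 N-rich replicate 2 or COL-0 N-absent replicate 1 or 3, each at -0.61. The third call in SALK_070989, EXPB3 (-0.57, limma adjusted p = 0.04), was lost without any 1 of the 6 arrays, with values from -0.61 to -0.53.

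In darkness the same comparison, dark N-rich minus dark N-absent, gave 10 members lower and 5 higher in COL-0, against 9.6% and 10.6% of the probe sets kept. In SALK_070989 it gave 4 lower and 4 higher, against 15% and 13.6%. In COL-0, 7 of the 15 calls were kept whichever array was left out, and 6 of 8 in SALK_070989. A limma fit on only the 4 COL-0 arrays of this comparison called 3 in place of 15 (3.11% of the probe sets kept), and AT3G28220, 253040_at, 254687_at, 261191_at, 266326_at, AT3G48420 and XTH32 were among the 12 calls lost, with adjusted p from 0.05 to 0.24. AT3G28220, the TRAF-like gene, measured 3.10 and 3.43 in COL-0 dark N-absent and 5.28 and 4.76 in COL-0 dark N-rich. In SALK_070989 it measured 3.63, 4.01 and 3.29 in dark N-absent and 5.22, 5.28 and 5.14 in dark N-rich. The groups did not overlap in either genotype, and the differences were 1.76 ± 0.34 (SE, limma adjusted p = 0.00021) and 1.57 ± 0.28 (limma adjusted p = 4.2e-05). Both calls were kept with any 1 array left out, though the COL-0 call missed the threshold in the fit on only its groups (limma adjusted p = 0.05). Without COL-0 dark N-absent replicate 1, the array with the high GAPDH 3′ minus 5′ difference, 10 members were called in COL-0, 7 lower and 3 higher.

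In light, AT3G28220 had means of 11.60 in COL-0 N-absent and 11.22 in COL-0 N-rich, and the difference between the dark and the light nitrogen effect was 2.14 ± 0.44 in COL-0 and 1.49 ± 0.39 in SALK_070989 (interaction in the limma fit, adjusted p = 0.0011 and 0.013, the first at 0.057 in the fit on only its groups). The other members called in both genotypes in darkness were lower in dark N-rich. They were 253040_at with -1.34 in COL-0 and -0.96 in SALK_070989, 254687_at with -0.67 and -0.78, 261191_at with -1.53 and -0.74, and 266326_at with -0.66 and -0.58. In COL-0, AT1G65490 was lower by -1.23 ± 0.29 (limma adjusted p = 0.0017), also with any 1 array left out. The limma calls of AT3G48420 (0.68, adjusted p = 0.0026) and XTH32 (-0.62, adjusted p = 0.04) in COL-0 depended on single arrays. Without COL-0 dark N-absent replicate 1 they were 0.58 and -0.77 (limma adjusted p = 0.058 and 0.053), and without COL-0 dark N-rich replicate 2 they were 0.33 and -0.55 (0.23 and 0.17). XTH32 also lost its call without COL-0 dark N-absent replicate 2 (-0.46) or dark N-rich replicate 1 (-0.68), and 254687_at in COL-0 without COL-0 dark N-absent replicate 2 (-0.56) or dark N-rich replicate 1 (-0.64). Likewise 266326_at lost its COL-0 call with replicate 1 of COL-0 dark N-absent left out (-0.40), and 261191_at its SALK_070989 call without dark N-rich replicate 2 of that line (-0.55). The smallest limma adjusted p in COL-0 was that of 245213_at (1.01 ± 0.12, 5e-08).

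The WRKY1 insertion lines, in which WRKY1 itself was near the lowest value of the table or, in SALK_136009, at 4.22, were compared with COL-0 on the arrays that did not choose the members. In the steady groups SALK_016954 had no member called, with 2 at an unadjusted p under 0.05, where limma called 0.896% of the probe sets kept lower and 2.38% higher. SALK_136009 had 2 members lower, AT1G60590 and 247780_at, and none higher, against 3.41% and 5.07%. SALK_070989 had 15 lower and none higher, against 6.88% and 5.61%, with 24 members at an unadjusted p under 0.05. The median member difference was -0.04 in SALK_016954, -0.18 in SALK_136009 and -0.35 in SALK_070989, against 0.00, 0.00 and -0.04 over the probe sets kept. Leaving out COL-0 steady replicate 1 gave 8 calls, all lower. So did leaving out replicate 3 of SALK_070989 steady, which has the high GAPDH 3′ minus 5′ difference. The part of RNA integrity in these 15 was not tested. Whichever 1 array was left out, 7 of them kept their call. A limma fit on only these 2 groups called 9, against 4.51% of the probe sets kept. Of these, 8 were among the 15, and 249774_at and 254862_at were lost there. The same kind of fit called 1 member in SALK_136009, neither of the 2 above, against 3.03% of the probe sets kept.

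Among these 7 was AT1G60590, which measured 8.88, 9.19 and 9.26 in COL-0 steady and 8.40, 8.34 and 8.30 in SALK_070989 steady. The groups did not overlap (-0.76 ± 0.20 (SE), limma adjusted p = 0.0082). In SALK_136009 steady it measured 8.83, 8.35 and 8.26 (-0.63 ± 0.20, limma adjusted p = 0.044), a call lost without replicate 2 or 3 of either line (values from -0.59 to -0.52). The lowest limma adjusted p among the members was that of 250207_at, with 9.09, 9.11 and 8.86 in COL-0 and 7.72, 7.86 and 7.90 in SALK_070989 (-1.19 ± 0.20, 6.3e-05). The other 5 were 251524_at (-0.94), 249774_at (-0.85), 263034_at (-0.83), 254862_at (-0.75) and 251309_at (-0.74). For 247780_at the difference was -0.91 in SALK_070989 and -0.85 in SALK_136009, and the second call was lost without replicate 1 of COL-0 steady (-0.73) or of SALK_136009 steady (-0.67). The first was lost without replicate 1 of COL-0 steady (-0.79) or replicate 3 of SALK_070989 steady (-0.83). The photorespiratory and plastid members LrgB and AT3G48420 had steady means of 9.84 and 9.67 in SALK_070989 and 9.92 and 9.80 in COL-0 and were not called.

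**Figure D4:**
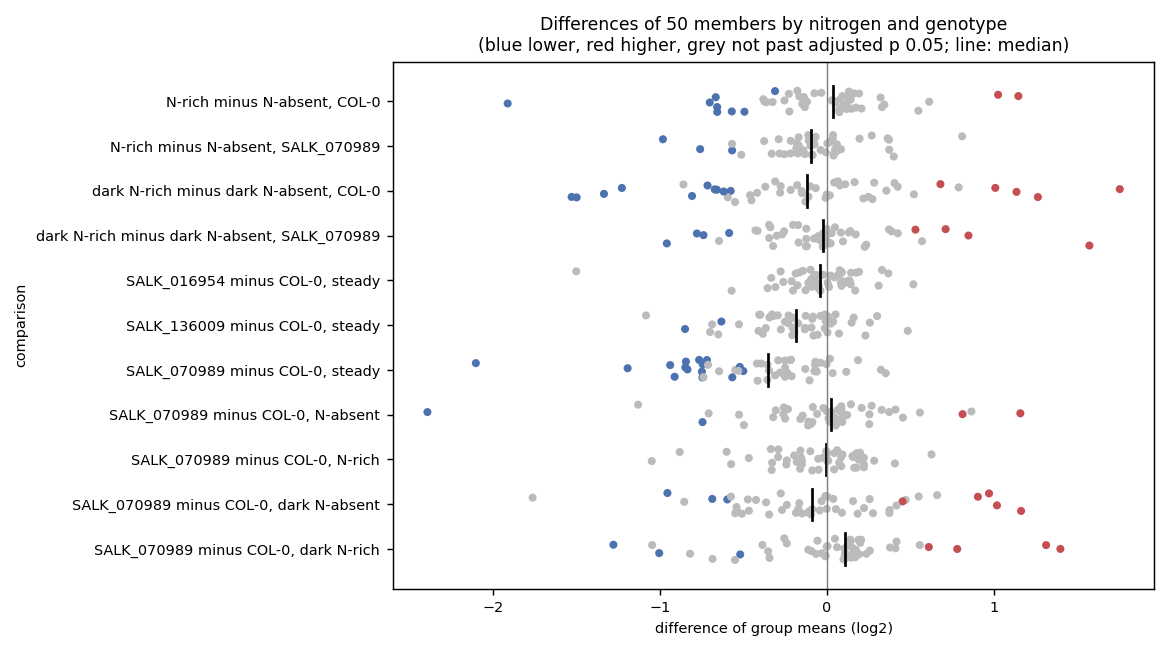
Difference of group means on the log2 scale (horizontal axis) of the 50 members in 11 comparisons of nitrogen supply or genotype (vertical axis), with blue for members called lower, red for called higher and grey for not called by limma, and a black line at the median. The median lies lowest, at -0.35, for SALK_070989 minus COL-0 in the steady groups, where 15 members were called lower.

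On the nitrogen media in light, SALK_070989 differed from COL-0 in 2 members called lower and 2 called higher for N-absent, against 3.84% and 4.18% of the probe sets kept. For N-rich no member was called, with 6 at an unadjusted p under 0.05, against 1.13% and 1.62%. The median member difference was 0.02 and 0.00. In N-absent the count was 2 if replicate 1 of COL-0 or replicate 2 of SALK_070989 was left out, and 7 if replicate 2 of COL-0 was. A limma fit on only the 2 N-absent groups called none of the 50 and none of the probe sets kept, with 5 members at an unadjusted p under 0.05. EXPB3 was higher in SALK_070989, at 8.55, 8.72 and 8.65 against 7.89, 7.79 and 7.79 in COL-0. The groups did not overlap (0.81 ± 0.20 (SE), limma adjusted p = 0.0083), and the call was kept with any 1 array left out, but not in the fit on only these groups (limma adjusted p = 0.12). The call of AT1G13650 (1.16 ± 0.32, limma adjusted p = 0.021), whose arrays overlap, was lost without replicate 1 or 3 of either genotype, with values from 0.82 to 1.03.

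In the combined dark groups, SALK_070989 had 3 members lower and 5 higher for dark N-absent, against 8.96% and 11.1%. Without COL-0 dark N-absent replicate 1 it had 5 lower and 2 higher, 4 of them among the 8. For dark N-rich it had 3 lower and 4 higher, against 2.51% and 2.68%. In dark N-rich the count was 3 without COL-0 dark N-rich replicate 1 or SALK_070989 dark N-rich replicate 1, and 4 without COL-0 replicate 2 or SALK_070989 replicate 3 of those groups. Limma fits on only the groups compared called 4 members in dark N-absent and 2 in dark N-rich, against 8.76% and 0.476% of the probe sets kept. Both calls of AT2G04039 described next were lost in these limma fits (adjusted p = 0.099 and 0.26). The NDH subunit AT2G04039 was higher in SALK_070989 in both, by 0.45 ± 0.16 and 0.61 ± 0.16 (SE, limma adjusted p = 0.039 and 0.016). It measured 3.95 and 3.90 against 4.53, 4.44 and 4.17 in dark N-absent, and 3.82 and 3.48 against 4.60, 4.14 and 4.05 in dark N-rich. The arrays did not overlap, but the first call was lost without replicate 1 or 2 of either group (0.38 to 0.48), and the second without COL-0 dark N-rich replicate 2 (0.44) or SALK_070989 dark N-rich replicate 1 (0.44). AT3G48460 was higher in dark N-rich, at 6.19, 6.14 and 6.40 against 4.92 and 4.93 (1.31 ± 0.32, limma adjusted p = 0.0084). That call was lost without either COL-0 array (1.31 and 1.32, limma adjusted p = 0.065 and 0.058). In dark N-absent 245213_at was higher by 1.16 ± 0.11 (limma adjusted p = 2.6e-10). In dark N-rich 267256_s_at was higher by 1.40 ± 0.25 (limma adjusted p = 0.00022). Both calls were kept with any 1 array left out. The mean of 245213_at was 6.04 in COL-0 dark N-absent, 7.05 in COL-0 dark N-rich and 7.20 in both combined dark groups of SALK_070989. Its nitrogen call in COL-0 in darkness and its interaction calls share the 2 arrays of COL-0 dark N-absent.

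The difference of the dark effect between the genotypes was tested as an interaction in the same limma fit. In N-absent it was below 0 for 3 members and above 0 for 4, against 4.81% and 7.02% of the probe sets kept, and in N-rich it was below 0 for none and above 0 for 1, against 0.539% and 1.15%. At an unadjusted p under 0.05 there were 16 and 9 members. The largest was that of 267256_s_at, with dark differences of -5.96 in COL-0 and -4.81 in SALK_070989 for N-absent, and of -5.69 and -3.997 for N-rich. Its interaction was 1.69 ± 0.33 (SE, limma adjusted p = 0.0018) for N-rich and 1.16 ± 0.33 (0.018) for N-absent. The level of 267256_s_at in the COL-0 dark groups lies near the lowest value of the table. The N-absent call was lost without COL-0 dark N-absent replicate 1 or 2 (1.16 each), without SALK_070989 dark N-absent replicate 3 (0.88) or without SALK_070989 N-absent replicate 3 (0.85). In N-absent the count was 4 if SALK_070989 dark N-absent replicate 1 was left out. In N-rich it was 2, 3 and 2 if COL-0 dark N-rich replicate 1, replicate 2 or SALK_070989 dark N-rich replicate 3 was left out. The difference of the nitrogen effect between dark and light was below 0 for 5 and above 0 for 5 members in COL-0, against 5.07% and 6.46%. In SALK_070989 it was below 0 for none and above 0 for 2, AT3G28220 and 262526_at, against 4.45% and 4.18%, with 8 at an unadjusted p under 0.05, and for 4 members if SALK_070989 dark N-rich replicate 1 was left out. Limma fits on only the groups compared gave 2 members for the dark by genotype interaction in N-absent, without 267256_s_at, and 4 and 1 for the nitrogen by dark interaction in COL-0 and SALK_070989, the second without 262526_at. In that order, these fits called 4.53%, 3.52% and 5.97% of the probe sets kept.

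Within the 12 arrays that chose the members, the genotypes are described without a test. The median member difference, SALK_070989 minus COL-0, was -0.26 in light, from -1.23 to 0.36, and -0.08 in dark, from -0.67 to 0.59. Over all probe sets kept it was -0.01 in light and 0.00 in dark.

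None of the 16 members with a gene name belongs to the lists of photosystem, Calvin cycle, chlorophyll, glucosinolate, sulfate, wall-loosening, clock or starvation genes that were drawn up for comparison, and the other 34 could not be looked up. Even the β-expansin EXPB3 and XTH32 are not on the wall-loosening list, so the absence reflects how the lists were drawn up. It does not show that the set lacks these roles, and 3 probe sets that met the threshold were left out by name. The size of change in the listed genes that were measured is given beside the members. Measured again means that the annotation gives a probe set to that gene alone, so the other listed genes could not be looked up. All 6 measured of 35 photosystem and antenna genes were lower in each of the 4 dark comparisons, with median differences of -2.11, -1.52, -1.64 and -1.75. LHCB4.3, an antenna protein of photosystem II, went from 7.64 in COL-0 N-absent to 3.75 in COL-0 dark N-absent (-3.89 ± 0.20 (SE), limma adjusted p = 5.6e-19), beside a median of -4.41 for the members. PSAN, a subunit of photosystem I, went from 12.53 to 10.06. All 3 measured of 19 Calvin cycle genes were lower in the 4 comparisons, with medians of -3.30, -2.50, -2.57 and -2.74. SBPASE, the sedoheptulose bisphosphatase, had -4.04 in N-absent COL-0. Its level in COL-0 dark N-absent was 7.65.

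Of 6 measured chlorophyll synthesis genes of 20 listed, 4 were lower in each of the 4 comparisons, among them CHLM (-1.90 in N-absent COL-0), and PORB was higher in 3 of them. Both measured of 21 aliphatic glucosinolate genes were lower in all 4 (UGT74B1 with -1.83 and AT2G31790 with -3.92 in N-absent COL-0). The 1 measured of 7 sulfate assimilation genes, SIR, was lower in all 4 by 0.36 to 0.89. Of the 2 measured of 17 light signalling and clock genes, HYH was lower in all 4 and GI was not called in 3. Among 5 measured of 20 expansin and XTH genes, only EXPA4 was lower and 3 or 4 were higher, with XTH19 at 2.90 in N-absent COL-0, while the members EXPB3 and XTH32 were lower in all 4. Of 10 genes that starvation induces, 5 were measured, and 3 were higher in N-absent COL-0 and all 5 in the other comparisons. MCCA, a subunit of the enzyme that breaks down leucine, rose by 2.28 in N-absent COL-0.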

How the data were processed

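RNA of whole shoots was measured on 46 Affymetrix ATH1 arrays, 1 array per sample. The values analysed are the log2 expression values as deposited. Per the submitters' processing notes the authors used GCRMA, and no version is given. GCRMA corrects background, normalizes between arrays and gives 1 value per probe set. The log2 scale was read from the values, and no scanner files were used here. The number of arrays limits the precision.

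The 50 members and all gene lists were chosen with earlier results of these data known. The annotation gives 1 gene for 13513 of the 22810 probe sets in the table, several for 503 and none for 8794, and 13436 of the 13513 were matched to a RefSeq locus tag. No sequence was printed and promoter motifs were not counted, because no sequence table was used here. Levels per group, dark minus light differences, and counts were computed with Python 3.11.15 and pandas 2.3.3.

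Tests used R 4.3.3 and limma 3.58.1 (lmFit, contrasts and eBayes). One fit covered all 16 groups, with 1 mean per group and no covariate, on 14288 probe sets with a group mean above 4 in at least 1 group, and had 30 residual and 4.97 prior degrees of freedom. Benjamini-Hochberg adjustment ran over all probe sets kept, and calls are at an adjusted p under 0.05. All 50 members passed the filter. A permutation test of 3 against 3 arrays cannot give a two-sided p below 0.1 and was not used. The fit was tested on simulated data of 14288 probe sets. For N-rich minus N-absent in COL-0 it recovered 92% of changes of 1 and 38% of changes of 0.5 on the log2 scale. For SALK_070989 minus COL-0 in steady it recovered 96% and 32%. For dark N-absent minus N-absent in COL-0 it recovered 78% and 22%, and for the dark by genotype interaction in N-absent 62% and 6%. The simulation changed 50 probe sets per size, with normal noise around COL-0 steady means and no lowest value. In the data far more probe sets were called in most comparisons, and 26.4% of values lie within 0.01 of the lowest. The rates therefore describe the simulation and not the recovery in these data.

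Members with 1 gene are named by role. Values are given for the 8 members with the lowest mean dark minus light difference and for at most 4 members per comparison, ranked by adjusted p. Further members were named after their values were seen, for their levels in the combined or nitrogen groups. Alternatives were no filter, a filter at 6, a further quantile normalization, eBayes with trend and robust settings, replicate number as a block, leaving out 1 array at a time, and a separate fit for the groups of each comparison. The labels give most groups replicate numbers 1 to 3. Deviations of same-numbered arrays from their group means correlated above 0.1 in all 3 pairs for 2 of 15 comparisons, N-rich minus N-absent in COL-0 and SALK_070989 minus COL-0 in N-absent. The labels do not say that same-numbered arrays belong together. The block gives each replicate number 1 effect shared by all groups, so it is not a paired test within a comparison.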

Additional observations from a re-analysis of the deposited data

Results flagged for a closer look

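The effects of darkness or of nitrogen supply differed for some members between the genotypes or between light and darkness, by an interaction term in the limma fit with adjusted p under 0.05. All values are differences of differences on the log2 scale, and the interactions rest on groups from 2 experiments. For dark by genotype in N-absent, 6% of members were called below 0 and 8% above, against 4.81% and 7.02% of the probe sets kept. In N-rich the shares were 0% and 2%, against 0.539% and 1.15%. For nitrogen by dark they were 10% and 10% in COL-0, against 5.07% and 6.46%. In SALK_070989 they were 0% and 4%, against 4.45% and 4.18%.

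For N-absent, the dark effect in SALK_070989 minus that in COL-0 was 1.16 for 245213_at, 1.16 for 267256_s_at, 1.08 for 258055_at and 0.94 for 256015_at. It was -0.88 for XTH32, -0.81 for 251524_at and -0.76 for 262526_at. For N-rich it was 1.69 for 267256_s_at. Of the N-absent calls, only those of 245213_at and 258055_at were kept whichever array was left out. The call of 258055_at was lost in the limma fit on only the groups compared (adjusted p = 0.061). The N-absent call of 267256_s_at was lost without any 1 of 4 arrays, both of COL-0 dark N-absent and the third of SALK_070989 in N-absent and in dark N-absent. Leaving out COL-0 dark N-absent replicate 1 gave 0.52 for 256015_at and -0.57 for 262526_at, and neither was called.

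The nitrogen effect in darkness minus that in light was 2.14 for AT3G28220, 1.09 for 258055_at, 1.08 for 258497_at, 0.99 for 256015_at and 0.93 for 245213_at in COL-0. Also in COL-0, it was -1.36 for AT1G60590, -1.35 for 251524_at, -1.32 for AT1G65490, -1.04 for 255284_at and -0.71 for 257173_at. AT1G60590 had dark means of 2.48 and 2.26, close to the lowest value of the table, so its value restates the difference in light. In SALK_070989 it was 1.49 for AT3G28220 and 0.72 for 262526_at. Of the 10 COL-0 calls, 5 were kept whichever array was left out and 3 under every alternative. Without COL-0 dark N-absent replicate 1 the value of 256015_at was 0.57. In limma fits on only the groups compared, AT3G28220 and AT1G60590 in COL-0 were not called (adjusted p = 0.057 and 0.087). Nor was 262526_at in SALK_070989 (limma adjusted p = 0.058).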

How the results depend on the processing

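The number of members was 47 to 53 with any 1 of the 12 arrays behind the rule left out. No named difference changed direction under any alternative. Of 100 pairs of a named member and a comparison, 64 kept their call under every alternative. The block by replicate number lost none of these 100 calls, and 15 members were called lower or higher in COL-0 in dark N-rich minus dark N-absent when the numbers of COL-0 dark N-rich were crossed, an alternative chosen after seeing the data. With the replicate block, 9 members were called in place of 10 for N-rich minus N-absent in COL-0 and 6 in place of 4 for SALK_070989 minus COL-0 in N-absent. These are the 2 comparisons in which all 3 same-numbered pairs of arrays correlated above 0.1. In the others, 1 member was called for SALK_070989 minus COL-0 in N-rich in place of 0, and 2 for the dark by genotype interaction in N-rich in place of 1. That interaction also gave 2 with quantile normalization and 2 with trend and robust settings. With no filter, SALK_136009 minus COL-0 gave 1 in place of 2. Fits on only the groups compared have fewer arrays to estimate the spread and gave the following counts of members. The share of all probe sets kept that each such fit called is in brackets. They called 5 in place of 10 for N-rich minus N-absent in COL-0 (10.5%) and 3 in place of 15 for the same in darkness (3.11%). For SALK_070989 minus COL-0 they called 9 in place of 15 in steady (4.51%) and 0 in place of 4 in N-absent (0%). In dark N-absent they called 4 in place of 8 (8.76%), in dark N-rich 2 in place of 7 (0.476%), and for SALK_136009 minus COL-0 1 in place of 2 (3.03%). For the interactions they called 2 in place of 7 (dark by genotype, N-absent, 4.53%), 4 in place of 10 (nitrogen by dark, COL-0, 3.52%) and 1 in place of 2 (nitrogen by dark, SALK_070989, 5.97%). Leaving out 1 array gave 1 to 3 members for SALK_136009 steady, 8 to 14 for SALK_070989 steady, 2 to 7 for SALK_070989 N-absent, 7 to 9 for dark N-absent and 3 to 7 for dark N-rich. It gave 5 to 10 for nitrogen in COL-0, 2 to 3 in SALK_070989, 10 to 14 in COL-0 in darkness and 7 to 11 in SALK_070989. It gave 4 to 9 and 1 to 3 for the dark by genotype interaction in N-absent and N-rich, and 7 to 13 and 2 to 4 for the nitrogen by dark interaction in COL-0 and SALK_070989. The 4 dark comparisons kept 49 or 50 members throughout. For the other changes the cause was not tested. Levels near the lowest value limit the size of falls, and groups of 2 arrays limit the COL-0 dark comparisons.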
